A study of Danio rerio with 8 samples.

Results

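The nuclear genes of the mitochondrial respiratory chain and ATP synthase were followed in RNA-seq libraries of adult zebrafish spinal cord. Members were the entries whose symbols begin with ndufa, ndufb, ndufc, ndufs, ndufv, sdha to sdhd, uqcr, cox4 to cox8 or atp5, together with cyc1. This rule found 101 of 25309 entries. Of these, 88 code for subunits: 35 of complex I, 5 of complex II, 9 of complex III, 22 of complex IV and 17 of complex V. The other 13 are 7 assembly factors of complex I, 4 of complex II and 2 inhibitory factors of complex V. A further 4 entries written in capitals, NDUFB1, NDUFAF8, COX5B and COX7A2_(1_of_many), fall outside the rule and were not counted. The ndufa4 family, named for complex I, was placed in complex IV, where its mammalian counterpart belongs.

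The study compared mstnb mutants (-/-) with wild-type siblings, where mstnb codes for a myostatin, a secreted inhibitor of muscle growth. Each genotype was sampled uninjured and 1 week after complete spinal cord transection (1 wpi), with 2 libraries in each of the 4 groups. Fish of both sexes were 3 to 9 months old. The injured samples were 2 mm sections spanning the lesion, cut 4 mm caudal to the brainstem, and the uninjured samples were 2 mm sections at that level; the labels name no sham operation among them. The labels do not give the number of fish per library, and the p-values therefore describe spread among libraries, part of which may be technical. The number 3 in one injured wild-type column is in no label, and that library was placed by its group name.

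The respiratory chain passes electrons from NADH (complex I) or succinate (complex II) through coenzyme Q, complex III and cytochrome c to oxygen at complex IV. Complexes I, III and IV pump protons, and complex V, the ATP synthase, uses the gradient to make ATP. Each complex except II joins subunits coded by the mitochondrial genome to subunits coded in the nucleus, and the core of complex IV is coded by the mitochondrial genome. Several nuclear subunits of complex IV exist as tissue isoforms: in mammals, COX6A2, COX7A1 and COX8B belong to heart and skeletal muscle, and COX4I2 is an isoform known from lung and from low oxygen.

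Levels are given as CPM, the reads of a gene scaled to a fixed library total, and are not compared between genes, whose lengths differ. Depth ranged from 20082743 to 33410514 reads. mstnb itself stood at 42.2 to 74.8 CPM in the wild-type and 10.2 to 26.4 CPM in the mutant libraries. All 12 neuronal and 8 oligodendrocyte markers examined were present in every group. The neuronal sum was 6342.2 and 10837.9 CPM in wild type uninjured 1 and 2. It was 4024.2 and 11881.1 CPM in mutant uninjured 1 and 2, against 7155.8 to 8750.5 CPM at 1 wpi. The summed CPM of 8 oligodendrocyte genes was 88751.3 to 134295.9 uninjured and 44051.7 to 50619.0 at 1 wpi, and that of 8 macrophage and microglia genes was 1544.1 to 2361.7 and 15507.5 to 20869.6. Averaged over both genotypes, however, 6 of the 8 oligodendrocyte genes had a positive log2 change with injury and 2 a negative one. The fall of the oligodendrocyte sum was thus not shared by most genes of that list. Reads of the mitochondrial genome were 21.51% to 32.81% of a library before injury and 12.6% to 13.32% after it. The libraries wild type uninjured 1 and mutant 1 wpi 1 stood apart by their oocyte genes. These summed to 826.4 and 1004.2 CPM, against 18.0 to 285.4 CPM in the others. Wild type uninjured 1 also held 4235.8 CPM of liver genes, against 20.5 to 450.2 CPM elsewhere. Mutant uninjured 1 differed in other ways, with 32.81% mitochondrial reads against at most 23.44% in any other library. It also had the lowest neuronal and the highest oligodendrocyte sum. It remained in the fits that left out the other 2 together. Skeletal muscle transcripts, summed over 23 genes of which none was at 0 in any group, were 31548.9 and 8562.7 CPM in wild type uninjured 1 and 2 and 15650.9 and 16281.2 CPM in mutant uninjured 1 and 2, against 1679.3 and 2253.0 CPM in wild type 1 wpi 1 and 3 and 3651.9 and 3938.6 CPM in mutant 1 wpi 1 and 2. Erythrocyte transcripts, summed over 7 genes, were 1647.3 to 8092.8 CPM uninjured and 1032.3 to 1300.3 CPM at 1 wpi, and limma called 6 of the 7 lower in the average. How far these other transcripts take part in the results was not tested. In bulk tissue, fewer cells of a type cannot be told apart from less RNA per cell.

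Across all genes the median log2 change with injury was 0.29 in wild type, 0.37 in mutants and 0.31 averaged over both genotypes. With TMM scaling it was 0.04, 0.00 and 0.01, and with mitochondrial reads left out of the totals 0.14, 0.15 and 0.13. A relative change below is therefore a log2 change minus the all-gene median. The tests and their adjusted p-values refer to the change before this shift. Each was made on log2(CPM + 1) with limma, fitted to all 8 libraries over the 19114 genes whose mean reached 1 CPM in some group, with Benjamini-Hochberg adjustment over those genes; a gene was called when its adjusted p was under 0.05. Of the members, 100 passed the filter. ndufa4l2b, at 0.0498 to 0.661 CPM, did not, and ndufs8b passed only through the injured mutants.

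Respiratory chain genes as a whole lay lower, relative to the other genes, in injured than in uninjured cord. Their median relative change was -0.48 in wild type, where 84 of the 100 lay below the all-gene median, and -0.40 in mutants, where 83 did. Before the shift the member medians were -0.19 and -0.04. With TMM scaling the median relative changes were -0.52 and -0.47, and with mitochondrial reads left out of the totals -0.51 and -0.45.

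Few single members were called. In wild type, limma called 0 members higher and 2 lower, where it called 3.86% of all genes, 2.9% higher and 0.952% lower. In mutants it called 0 higher and 1 lower, where it called 3.19% of all genes, 2.94% higher and 0.251% lower. Averaged over both genotypes it called 0 higher and 7 lower, where it called 12.2% of all genes, 11% higher and 1.21% lower. At an unadjusted p under 0.05 the members higher and lower were 0 and 16 in wild type, 1 and 4 in mutants and 7 and 15 in the average, where 15.3% and 4.08%, 16% and 1.45%, and 25% and 3.11% of all genes were higher and lower. edgeR called 0 higher in all 3, and 2, 1 and 15 lower. Over all genes its calls, both directions together, were 2.66%, 0.889% and 7.86%. DESeq2 called 0 higher, and 17, 4 and 38 lower, beside 8.93%, 4.65% and 14.4% of all genes, again both directions together. For edgeR and DESeq2 the shares of all genes by direction are not given, so these lower counts have no matching background. Of all genes called by limma, 75.3%, 92.1% and 90.1% were higher; with TMM scaling these shares were 63.4%, 75.5% and 64.9%, and without mitochondrial reads in the totals 66.9%, 82.5% and 79.0%. The 7 were cox4i1l, cox8b, cox6a2 and cox7a2a of complex IV, ndufa5 and ndufa2 of complex I, and sdhaf4, an assembly factor of complex II. Without the libraries wild type uninjured 1 and mutant 1 wpi 1, 0 members were called in either genotype alone and 3 in the average, namely cox4i1l, cox6a2 and cox8b. In the average, 3 were also called without any 1 of the injured libraries or without mutant uninjured 1, and 27 without wild type uninjured 2, of which 5 were higher, against 25.3% of all genes in that fit, and 22 lower, against 3.47%. Leaving out that last library gave 25 members lower in wild type, against 4.34% of all genes, and 4 in mutants, against 0.816%, whereas leaving out either injured wild-type library gave 0 in both genotypes. In mutants, the count was 4 without wild type uninjured 1 and 0 without any 1 of the mutant libraries.

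**Figure D1:**
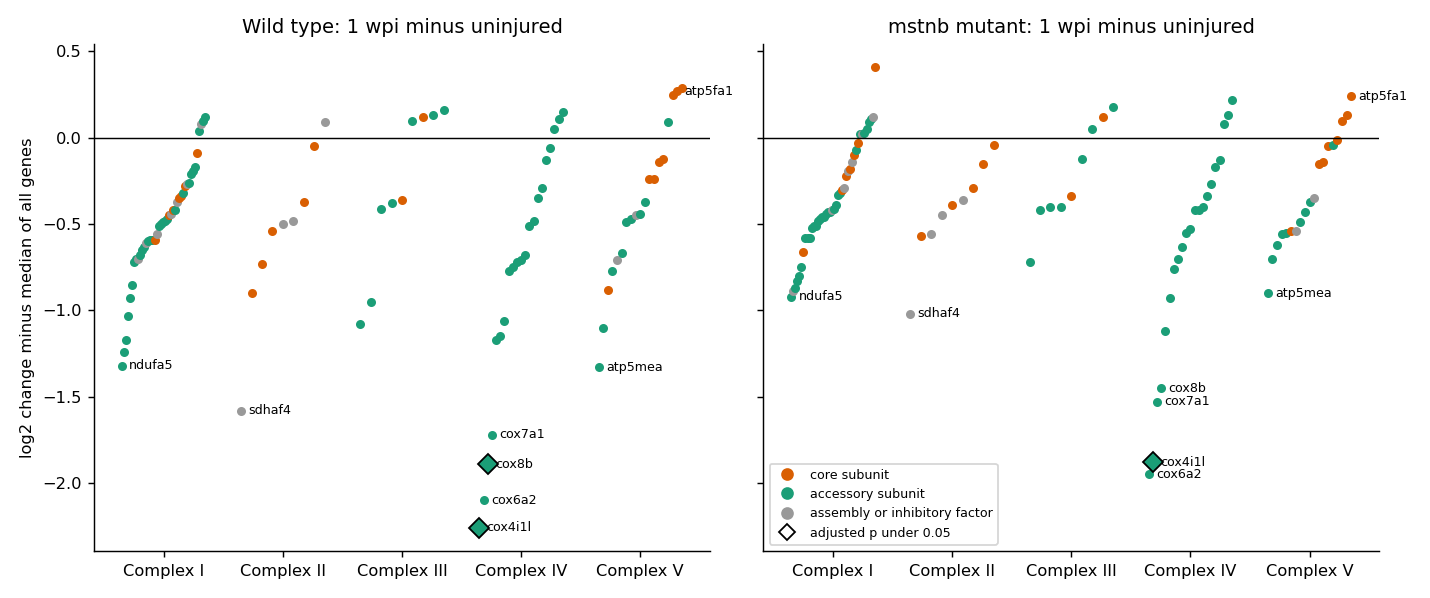
Relative log2 change of each tested member (change at 1 wpi minus the median of all genes), by complex, in wild type (left) and in mutants (right), with points spread sideways in order of value. Most points lie below the 0 line, cox4i1l, cox6a2, cox8b and cox7a1 lie lowest in both genotypes, and the highest points of complex V are core subunits (orange), such as atp5fa1; diamonds mark the calls.

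The changes were then summarised by complex. The median relative change in wild type was -0.49 for the 35 subunits of complex I, -0.54 for the 5 of complex II, -0.36 for the 9 of complex III, -0.71 for the 21 tested of complex IV and -0.37 for the 17 of complex V. In mutants the medians were -0.43, -0.29, -0.34, -0.53 and -0.37, so complex IV was lowest in both genotypes. No test was made of these differences, and the members' ranges overlapped widely, for example from -1.32 to 0.12 in complex I and from -1.33 to 0.29 in complex V of wild type. Core subunits, those that carry the redox centres or the catalytic and proton-moving parts, had a median relative change of -0.31 in wild type and -0.14 in mutants over 22 genes. Accessory subunits had -0.51 and -0.46 over 65 genes. The 2 classes also differ in complex, since all 21 tested genes of complex IV and the 3 core proteins of complex III were classed as accessory. Within complex I the core and accessory medians were -0.35 and -0.55 in wild type and -0.18 and -0.46 in mutants. Within complex V they were -0.13 and -0.49 in wild type and -0.03 and -0.55 in mutants.

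The make-up of the subunit transcripts was compared next, since the share of a complex in the summed CPM of all 88 subunit genes does not depend on how a library is scaled. The share of complex IV was 29.1% and 27.0% in wild type uninjured 1 and 2 and 27.0% and 24.2% in mutant uninjured 1 and 2, against 22.9% and 23.4% in injured wild type and 22.9% and 22.1% in injured mutants. That of complex I was 26.0% to 27.2% before injury and 24.3% to 25.1% after it. Both shares were lower in every injured than in every uninjured library. Complex V went the other way, from 31.5% to 35% before injury to 37.2% to 37.5% after it. Complex III stood at 7.6% to 8.73% uninjured and 9.3% to 9.8% injured. The shares add up to the whole, so lower shares of complexes I and IV raise those of the others, and these rises are not independent findings. For complex II, the ranges of 3.63% to 6.59% and 5.37% to 6.23% overlapped. Core subunits, none of which were in complex IV, held 25.5% to 34.7% of subunit CPM uninjured and 35.6% to 39.0% at 1 wpi, so their share also depends on that of complex IV. Without the isoform genes cox4i1l, cox4i2, cox6a2, cox7a1 and cox8b, a choice made after seeing the data, the shares of complexes I, III, IV and V still did not overlap; that of complex IV was 22.9% to 27.5% before injury and 20.8% to 22.2% after it. With the whole isoform families listed left out (17 genes, with non-muscle forms such as cox6a1, cox7a2a and cox8a and the c-ring genes among them), the gap for complex IV was narrow, from 14.5% in the highest injured to 14.6% in the lowest uninjured library.

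On the CPM scale the summed level of all 88 subunit genes was 24449.6 in wild type uninjured 1 and 17087.2 to 19867.6 in the other 7 libraries. Complex IV summed to 6200.1 ± 1280 CPM uninjured and 4410.0 ± 134 CPM at 1 wpi in wild type, and to 4630.4 ± 205 and 4159.6 ± 540 CPM in mutants (SD, n = 2 each). Complex V summed to 7130.9 ± 1340 and 7111.4 ± 334 CPM in wild type and to 6190.4 ± 432 and 6926.5 ± 736 CPM in mutants. The sums of complexes II, III and V in mutants, and that of complex III in wild type, were higher at 1 wpi on the CPM scale. With TMM scaling or without mitochondrial reads these sums were lower at 1 wpi. Only the shares of these complexes, not the direction of their sums, are thus free of the scaling.

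**Figure D2:**
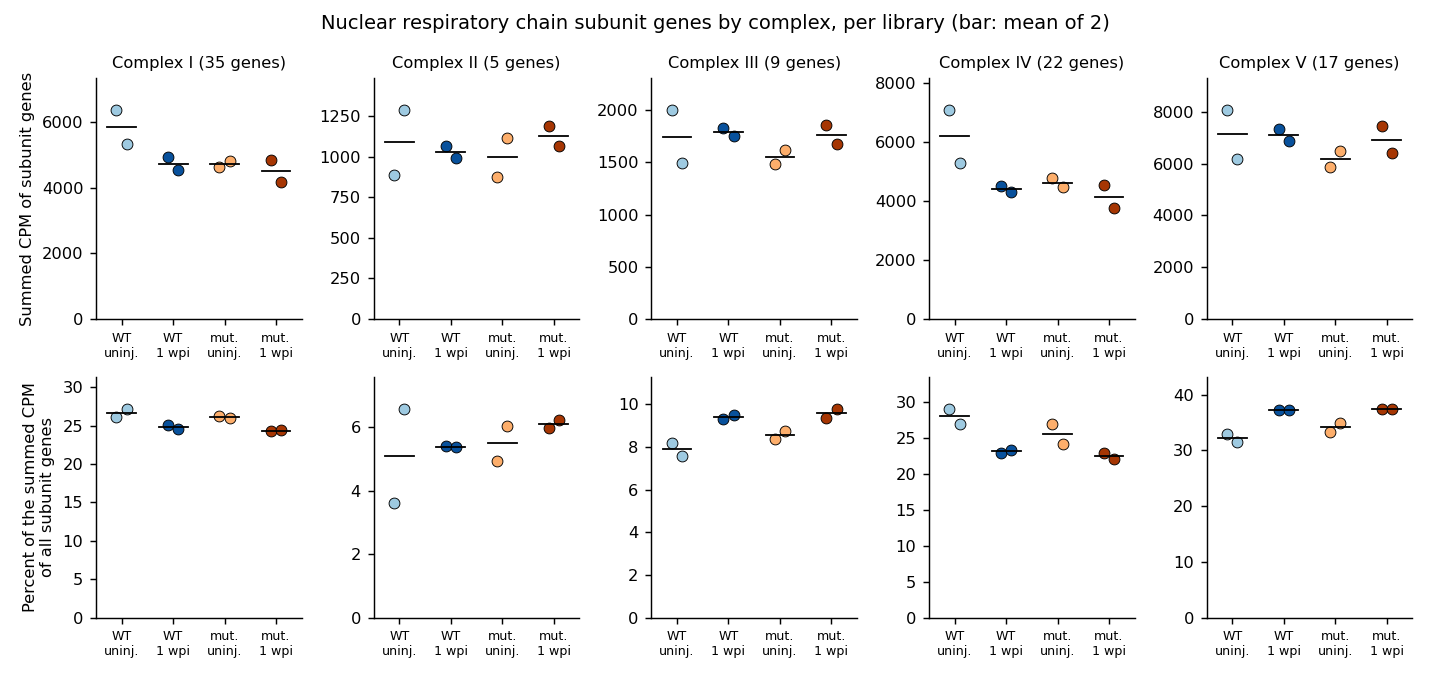
Summed CPM of the subunit genes of each complex (top) and the percent of all subunit CPM that each complex held (bottom), for the 2 libraries of each group (points) and their mean (bars); WT, wild type, uninj., uninjured, mut., mutant. The shares of complexes I and IV lie lower and those of III and V higher in all 4 injured libraries. The direction of the sums of II, III and V in mutants, and of III in wild type, flips with TMM scaling or without mitochondrial reads.

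Among the complex I genes, accessory subunits had the lower values. ndufa5, an accessory subunit of the arm that passes electrons to coenzyme Q, was found at 411.2 and 254.4 CPM in uninjured wild type and at 171.1 and 144.3 CPM after injury. In mutants it was found at 194.4 and 184.6 CPM before and 132.8 and 124.8 CPM after injury. Each injured library was thus below each uninjured one, and averaged over genotypes ndufa5 fell by 0.80 ± 0.20 (log2 ± SE, limma adjusted p = 0.0259). ndufa2, an accessory subunit of the NADH-oxidising arm, had 288.5, 181.1, 161.2 and 131.3 CPM before and 118.3, 116.9, 117.9 and 89.3 CPM after injury; here and below, lists of 4 values give both wild-type libraries first, then both mutant ones. It fell by 0.73 ± 0.21 (limma adjusted p = 0.0444), again with no overlap. Both calls were lost without wild type uninjured 1 and mutant 1 wpi 1. Altogether 7 complex I accessory subunits (ndufa1, ndufa2, ndufa3, ndufa5, ndufa12, ndufab1b, ndufs4) lay lower in every injured library, where 2.44% of all genes did so, and 1, ndufa10, lay higher, where 21.3% did; ndufa10 overlapped with TMM scaling and without mitochondrial reads in the totals. By level, ndufb8 and ndufa6 had the highest mean CPM of the complex. ndufb8 had group means of 374.7 ± 30.3, 325.3 ± 37.6, 332.7 ± 2.64 and 307.9 ± 24.9 CPM (SD, n = 2 each) in wild type uninjured and injured and mutant uninjured and injured, and ndufa6 had 343.9 ± 0.603, 337.8 ± 29.1, 288.2 ± 10.2 and 302.1 ± 68.0 CPM. Neither was called by limma or edgeR, and DESeq2 called ndufb8 lower in the average.

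The 7 genes classed as core subunits of complex I had averaged changes with limma adjusted p-values from 0.334 to 0.978. They include both ndufs8a and ndufs8b, and no ndufs1 entry was among the members. ndufv1, which binds NADH and carries the flavin, had 187.8 to 260.4 CPM uninjured and 207.2 to 245.6 CPM injured. ndufs7, which carries the last iron-sulphur cluster before coenzyme Q, had 302.9 to 396.0 and 234.7 to 310.3 CPM. Their relative changes were -0.45 and -0.59 in wild type and -0.18 and -0.66 in mutants. ndufs8b, at 0.149 to 1.96 CPM, was close to the detection limit, and its reads could be shared with its copy ndufs8a. Of the 7 assembly factors of the complex, 1, ndufaf6, lay lower in every injured library, at 44.2 to 52.5 CPM uninjured and 31.3 to 39.0 CPM injured.

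In complex II, which oxidises succinate and also belongs to the tricarboxylic acid cycle, limma called an assembly factor and 0 of the 5 subunits, of which all 5 lay below the all-gene median in both genotypes. sdhaf4, known from other species to help assemble the flavoprotein with the iron-sulphur subunit, had 147.8, 72.7, 69.9 and 60.2 CPM before and 49.1, 35.3, 38.0 and 43.7 CPM after injury. Injured and uninjured libraries did not overlap, and it fell by 0.98 ± 0.25 averaged over genotypes (log2 ± SE, limma adjusted p = 0.0263); the call was lost without wild type uninjured 1 and mutant 1 wpi 1, where the fall was 0.67. The injured and uninjured libraries overlapped for both catalytic subunits. sdha, the flavoprotein, ranged from 218.3 to 457.0 CPM uninjured and from 311.4 to 370.5 CPM injured. sdhb, the iron-sulphur subunit, ranged from 287.3 to 542.4 and from 444.1 to 534.4 CPM. Of the membrane anchors, sdhda lay lower in every injured library, at 49.0 to 74.7 CPM uninjured and 41.7 to 48.8 CPM injured. Its averaged change of -0.41 did not pass in limma (adjusted p = 0.194), but it passed with TMM scaling (adjusted p = 0.0237) and without mitochondrial reads in the totals (adjusted p = 0.0457), and edgeR and DESeq2 called it lower.

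In complex III, the core proteins uqcrc1, uqcrc2a and uqcrc2b, which carry no redox centre, and cyc1, cytochrome c1, lay higher in every injured than in every uninjured library. Of all genes, 21.3% did so. With TMM scaling, and also without mitochondrial reads in the totals, the injured and uninjured libraries overlapped for all 4 genes. cyc1 had 250.9, 338.5, 231.8 and 342.0 CPM uninjured and 415.4, 360.6, 408.0 and 383.3 CPM at 1 wpi. uqcrc1 had 120.6, 167.8, 111.9 and 168.2 CPM uninjured and 200.5, 172.9, 211.4 and 190.9 CPM injured. For these 4 genes the averaged changes of 0.35 to 0.47 did not pass in limma (adjusted p = 0.148 to 0.233), and that of uqcrc2a was -0.02 with TMM scaling. The small subunits had lower relative changes: the median in wild type was -0.68 over 4 genes, against 0.13 over the 3 core proteins, and in mutants -0.41 against 0.05. In wild type uninjured 1 uqcr10 and uqcrq stood at 153.5 and 235.5 CPM, against 52.9 and 112.9 CPM in wild type uninjured 2. uqcrh, the hinge protein at the cytochrome c site and the complex III gene with the highest mean CPM, had 704.9 CPM in wild type uninjured 1 and 313.9 to 465.9 CPM in the other libraries, with no order by injury. uqcrfs1, the Rieske iron-sulphur protein, had 207.5 to 256.1 CPM throughout.

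Across all complexes, 11 of the 100 tested members lay higher in all 4 injured libraries than in all 4 uninjured ones, against 21.3% of all genes. Another 17 lay lower, against 2.44% of all genes. With TMM scaling, 0 members lay higher, against 11.2% of genes, and 27 lower, against 7.8%, and without mitochondrial reads in the totals 0 lay higher, against 14.4%, and 39 lower, against 4.89%. The 17 lower members were among those found under either scaling. Without wild type uninjured 1 and mutant 1 wpi 1 the counts were 17 higher, against 30% of genes, and 23 lower, against 4.08%. The 11 higher members thus depend on the scaling, while the excess of lower ones over the background was present under each.

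The members that fell most were isoform genes of complex IV. cox4i1l, a zebrafish gene like cox4i1, was found at 54.6 and 35.9 CPM in uninjured wild type and at 11.5 and 9.67 CPM after injury. In mutants the values were 21.0 and 26.0 CPM before and 8.31 and 6.83 CPM after injury. The injured libraries lay below the uninjured ones of both genotypes. It fell in both genotypes, with log2 changes of -1.97 ± 0.35 in wild type (SE, limma adjusted p = 0.00987), -1.51 ± 0.35 in mutants (adjusted p = 0.0357) and -1.74 ± 0.24 averaged over both (adjusted p = 0.00101). The averaged call held in all 16 alternatives run. The call in wild type was lost in 4 of 17 alternatives, among them the fits without either injured wild-type library, and that in mutants in 8 of 17, among them the fits without any 1 mutant library, without either injured wild-type library and without the filter on low values; no log2 change in these fits reached above -1.37.

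cox8b, named for the muscle isoform of mammals, had 230.9 and 157.9 CPM in uninjured wild type, against 55.7 and 69.4 CPM after injury. In mutants it had 116.4 and 114.4 CPM before and 59.6 and 49.2 CPM after injury. All injured libraries were below all uninjured ones. It fell by 1.60 ± 0.29 in wild type (limma adjusted p = 0.0114) and fell by 1.34 ± 0.20 averaged over genotypes (adjusted p = 0.00171), and its change of -1.08 ± 0.29 in mutants did not pass (adjusted p = 0.0685). The averaged call held in all 16 alternatives, and that in wild type was lost without either injured wild-type library, without wild type uninjured 1 and mutant 1 wpi 1 together, and with the wild-type groups fitted alone. Its isoform partner cox8a stood at 136.2 to 154.0 CPM in all 8 libraries.

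cox6a2, in mammals the heart and skeletal muscle isoform of COX6A, had 43.5, 15.8, 27.5 and 16.9 CPM uninjured and 6.82, 6.74, 7.49 and 5.73 CPM injured. It fell by 1.70 ± 0.33 averaged over genotypes (limma adjusted p = 0.00617), and that call held in all 16 alternatives. cox7a1, the corresponding muscle isoform of COX7A, had 23.2, 4.57, 9.01 and 7.54 CPM uninjured and 2.94, 3.70, 3.11 and 3.17 CPM injured, and its averaged change of -1.30 ± 0.41 did not pass (adjusted p = 0.0585). cox7a2a, the non-muscle member of that family, fell by 0.80 ± 0.21 (adjusted p = 0.0303), from 740.3, 422.6, 447.0 and 409.0 CPM to 313.5, 303.0, 286.5 and 224.6 CPM; its call was lost without the 2 libraries that stood apart. cox7c and cox7b, the complex IV genes with the highest mean CPM, had relative changes of -1.06 and -1.17 in wild type and -0.70 and -0.76 in mutants. In limma their averaged changes did not pass (adjusted p = 0.103 and 0.0545). That of cox7b passed with TMM scaling (adjusted p = 0.0439) and without mitochondrial reads in the totals (adjusted p = 0.0257) and was called by edgeR, and DESeq2 called both genes lower in the average and in wild type.

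Muscle transcripts moved with these isoforms. All 4 muscle-list sums were lower at 1 wpi, and 18 of the 23 genes of that list were called lower in the average, against 1.21% of all genes. The other 5 genes of the list had a positive log2 change. The order of the uninjured libraries, however, differed between the isoforms. cox7a1 and cox6a2, like the muscle list, were lowest in wild type uninjured 2 and highest in wild type uninjured 1 among the uninjured libraries. cox8b and cox4i1l were highest in the same library but not lowest in wild type uninjured 2: that library had less muscle-list CPM than either uninjured mutant but more of both genes, 157.9 against 114.4 and 116.4 CPM for cox8b and 35.9 against 21.0 and 26.0 CPM for cox4i1l. The part of muscle RNA in these falls was not tested.

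**Figure D3:**
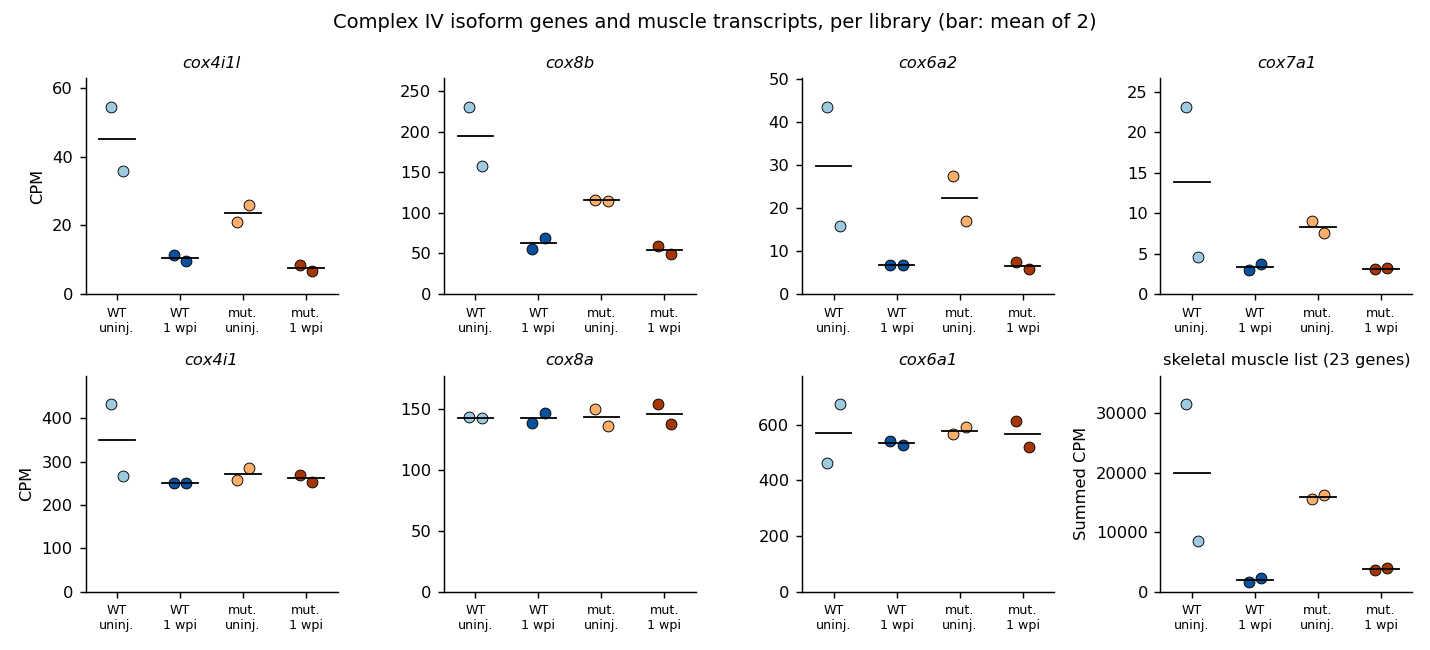
CPM of 4 complex IV isoform genes that were lower after injury (top), of cox4i1, cox8a and cox6a1 (bottom left), and the summed CPM of the 23 muscle-list genes (bottom right), for each library (points) with the mean of the 2 (bars). cox8a stays between 136.2 and 154.0 CPM, whereas cox8b and cox4i1l are higher in wild type uninjured 2 than in the uninjured mutants although its muscle sum, 8562.7 CPM, is lower.

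Shares within an isoform family do not depend on the scaling of a library; they are shares of reads, not of transcripts. Among the cox4 genes, cox4i2 took 25.0%, 32.0%, 34.8% and 31.9% of the reads uninjured and 45.3%, 41.6%, 45.5% and 45.1% at 1 wpi, higher in every injured library. cox4i1l took 4.9% to 8.41% uninjured and 1.44% to 2.38% injured, and cox4i1 59.9% to 66.6% and 52.3% to 56.2%. The CPM of cox4i2 was 162.1, 141.9, 149.4 and 145.5 uninjured and 217.7, 184.6, 231.8 and 213.8 injured; its averaged change of 0.50 ± 0.18 did not pass (limma adjusted p = 0.0936) and was 0.13 with TMM scaling. cox8b took 61.7% and 52.5% of the cox8 reads in uninjured wild type and 43.6% and 45.6% in uninjured mutants, against 26.3% to 32.0% after injury. cox6a2 took 2.3% to 8.57% of the cox6a reads uninjured and 1.09% to 1.26% injured. The shares within the cox6b, cox7a, ndufa4, atp5mc and atp5if1 families overlapped between injured and uninjured libraries. The cox7a family was taken as cox7a1 and cox7a2a, without the entry COX7A2_(1_of_many). How reads of such similar copies were divided is not known, so single values are uncertain.

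In complex V, median relative changes in the average were -0.07 for the 5 genes of the F1 head and central stalk and -0.67 for the 5 small membrane subunits. This difference was not tested, and atp5f1e of the stalk, at -0.70, was as low as the latter. The small membrane subunits summed to 2139.7 CPM in wild type uninjured 1, a library that stood apart, and to 1165.6 CPM in wild type uninjured 2. In injured wild type the sums were 1236.8 and 1115.2 CPM. In mutants they were 1249.6 and 1154.2 CPM before and 1166.7 and 906.4 CPM after injury. atp5fa1 and atp5f1b, the alpha and beta subunits of the F1 head that make ATP, lay higher in every injured library. atp5fa1 had 436.2, 567.3, 437.1 and 646.2 CPM uninjured and 691.1, 775.7, 861.1 and 757.1 CPM at 1 wpi. atp5f1b had 597.9, 952.0, 681.9 and 1069.2 CPM uninjured and 1115.0, 1082.9, 1199.0 and 1158.3 CPM injured. The averaged changes of 0.58 ± 0.20 and 0.50 ± 0.22 did not pass (limma adjusted p = 0.0815 and 0.158), and both were smaller with TMM scaling, at 0.21 and 0.13, where the libraries overlapped. Their joint share of complex V reads, which does not depend on the scaling, was 12.8% to 26.4% before injury and 24.6% to 29.9% after it, and thus overlapped too. atp5mc1, a c-ring gene, had 215.3 to 313.3 CPM uninjured and 338.3 to 389.2 CPM injured. atp5pb, a peripheral stalk subunit, had 256.9 to 320.7 and 338.4 to 383.1 CPM, and its averaged change was -0.01 with TMM scaling. In contrast, the 5 small membrane subunits all lay below the all-gene median in the average, as given above. The lowest was atp5mea, a subunit e gene, with 295.8, 137.9, 125.7 and 112.7 CPM uninjured and 106.7, 89.4, 96.2 and 69.5 CPM injured; its averaged change of -0.79 did not pass (adjusted p = 0.0601). atp5po, the oligomycin sensitivity-conferring protein of the peripheral stalk, which with atp5f1b had the highest mean CPM of the complex, had 867.6 to 1144.3 and 716.2 to 1019.0 CPM. The inhibitory factors atp5if1a and atp5if1b had relative changes of -0.45 and -0.71 in wild type and -0.54 and -0.35 in mutants.

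The nuclear subunits were then set against the mitochondrially coded subunits of the same complex. Of the 13 mitochondrially coded genes, 12 were called lower in the average, with a median relative change of -1.34, beside -0.45 for the nuclear members. The ratio of mitochondrially coded to nuclear-coded CPM within complex V was 0.806, 1.1, 1.32 and 0.911 before injury and 0.398, 0.353, 0.39 and 0.438 after it. In complex III it was 4.64 to 9.13 uninjured and 2.84 to 3.25 injured, and in complex I 1.42 to 3.15 and 1.07 to 1.39. These 3 ratios were lower in every injured library. In complex IV the ranges, 6.69 to 13.7 and 5.83 to 7.38, overlapped. A lower ratio shows unequal change of the mitochondrially coded and nuclear sets and not which of them changed.

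**Figure D4:**
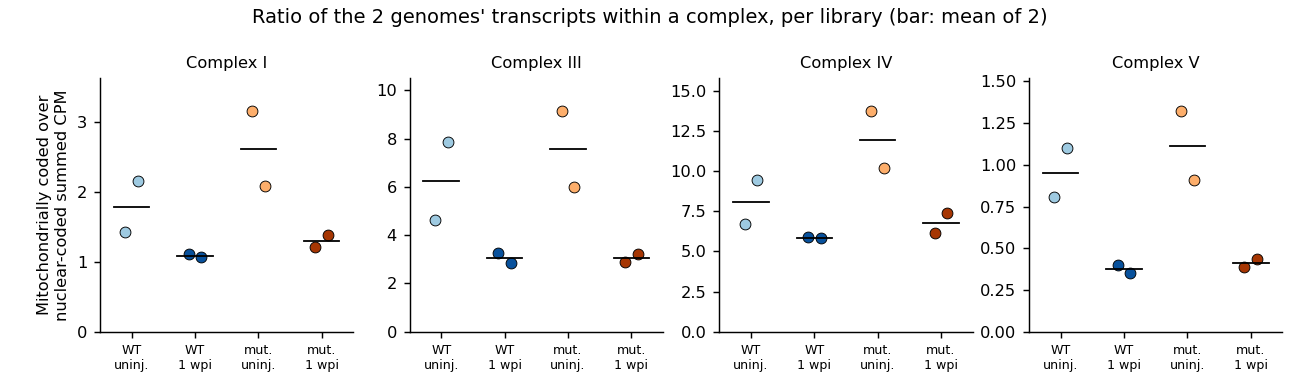
Ratio of the summed CPM of the mitochondrially coded subunits to that of the nuclear-coded subunits of the same complex, for each library (points) with the mean of the 2 (bars); complex II has no mitochondrially coded subunit. The injured libraries lie below all uninjured ones in complexes I, III and V and overlap with them in complex IV.

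Other genes of the pathway were examined by list; 11% of all genes were called higher in the average, so the share called higher in each list below was smaller than that of all genes. Of 23 tricarboxylic acid cycle genes 1 was called higher in the average and 0 lower; it was dlst, a subunit of the 2-oxoglutarate dehydrogenase complex, with 34.0 to 74.5 CPM uninjured and 91.9 to 112.1 CPM injured (limma adjusted p = 0.0456). The median relative change of that list was 0.03. Of 16 tested coenzyme Q and cytochrome c genes, 0 were called in either direction by limma, with a median relative change of -0.07. Of 22 genes of mitochondrial biogenesis 1 was higher and 0 lower, pparg, a nuclear receptor gene (0.958 to 2.12 CPM uninjured, 3.08 to 7.23 CPM injured, adjusted p = 0.0345). Of 38 further assembly factors 2 were higher and 0 lower. These were sco1, a copper chaperone of complex IV (adjusted p = 0.0453), and higd1a, a hypoxia-inducible gene whose product associates with complex IV (adjusted p = 0.0485). The medians of these lists beside the member median of -0.45 were 0.00 and -0.31. The calls of single pathway genes are from the main fit, and their values under other scalings are not given. Over all genes, 2104 were called higher in the average in that fit and 1047 with TMM scaling.

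The change with injury was then compared between genotypes. Across the 100 members the log2 changes in wild type and in mutants had a Pearson correlation of 0.90, and 83 had the same sign; over all 19114 genes the correlation was 0.37 and 74.1% had the same sign. These comparisons share no library, and genes within a library are not independent. The members and all genes were not matched by level, and the latter reach down to a group mean of 1 CPM. The large falls of cox4i1l, cox6a2, cox8b and cox7a1 in both genotypes also add to the member correlation. In the interaction test, which subtracts the wild-type injury change from the mutant one, 0 members were called by limma, where it called 0.565% of all genes, 0.56% higher and 0.00523% lower. At an unadjusted p under 0.05 there were 0 members, and edgeR and DESeq2 called 0 as well, where DESeq2 called 1.16% of all genes. The difference was 0.46 ± 0.49 for cox4i1l and 0.53 ± 0.41 for cox8b (log2 ± SE, limma adjusted p = 1 for both). The largest was 0.91 ± 0.63 for ndufs8b, a gene near the detection limit, followed by 0.74 ± 0.47 for uqcrb, a small complex III subunit.

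**Figure D5:**
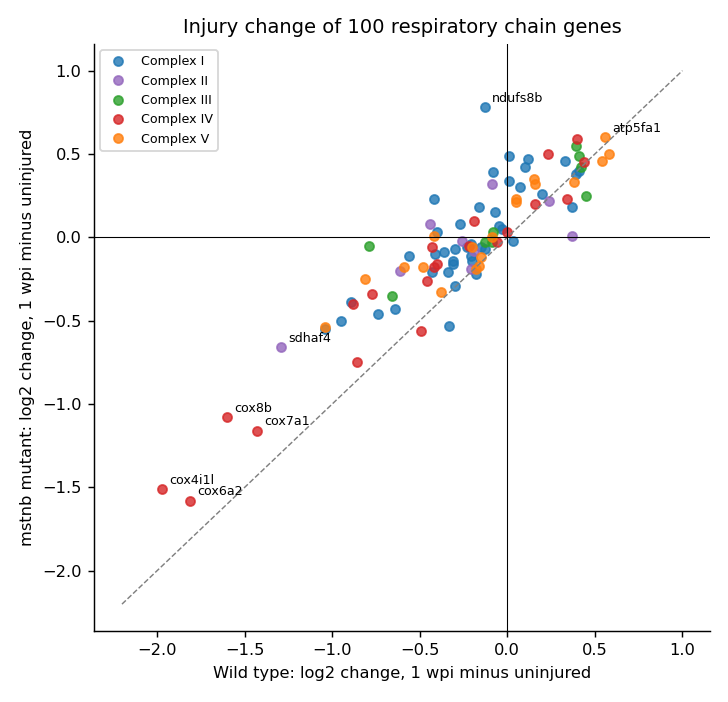
Log2 change at 1 wpi in mutants against that in wild type for the 100 tested members, one point a gene, coloured by complex, before subtraction of the all-gene median; the dashed line marks equal change. Most points lie on or above the line, with a correlation of 0.90, and the complex IV isoforms cox4i1l, cox6a2, cox8b and cox7a1 lie farthest down. Points above 0 depend on the scaling, and so does the place of the points about the line. The median difference of the members, mutant minus wild-type change, was 0.17 on this scale and 0.03 with TMM scaling.

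Mutants and wild type were compared within each condition. In uninjured cord limma called 0 members, as it called 0% of all genes; edgeR and DESeq2 called 0 members too, where DESeq2 called 0.443% of all genes. At an unadjusted p under 0.05, 0 members were higher and 6 lower in mutants: cox4i1l, cox7b, cox7c, cox8b, ndufa5 and ndufv3, where 1.22% of all genes were higher and 3.23% lower. The member median was -0.21, beside -0.06 for all genes, and 76 of the 100 lay below the all-gene median. The summed CPM of all 88 subunit genes was 24449.6 and 19594.7 in wild type uninjured 1 and 2, against 17660.2 and 18548.5 in mutant uninjured 1 and 2. The gap was thus wider for wild type uninjured 1, a library that stood apart. For atp5f1e the values were 499.8 and 214.9 CPM against 221.7 and 211.8 CPM, whereas for ndufa5 both wild-type values, 411.2 and 254.4 CPM, exceeded the mutant ones, 194.4 and 184.6 CPM. At 1 wpi, limma, edgeR and DESeq2 called 0 members, and 0 had an unadjusted p under 0.05. There limma called 0.267% of all genes, 0.262% higher and 0.00523% lower, and DESeq2 called 0.774%. The member median was -0.03, beside 0.02 for all genes.

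Only ndufv3 and ndufb10, both accessory subunits of complex I, lay lower in all 4 mutant than in all 4 wild-type libraries; 2 of 100 members compare with 0.633% of all genes, and 0 members lay higher, against 0.513%. ndufv3 had 74.1, 82.0, 53.5 and 65.1 CPM in wild type and 40.1, 48.2, 48.8 and 41.5 CPM in mutants. Its difference was -0.81 ± 0.28 uninjured and -0.38 ± 0.28 at 1 wpi (log2 ± SE, limma adjusted p = 0.960 and 1). ndufb10 had 300.4, 247.4, 222.8 and 202.6 CPM in wild type and 192.5, 189.0, 185.5 and 173.4 CPM in mutants. Within each condition cox4i1l and cox8b also took a smaller part of their families in both mutant libraries than in both wild-type ones. For cox4i1l the shares were 4.9% and 5.7% against 8.41% and 8.1% uninjured and 1.63% and 1.44% against 2.38% and 2.18% at 1 wpi. For cox8b they were 43.6% and 45.6% against 61.7% and 52.5% uninjured. At 1 wpi they were close, at 27.9% and 26.3% against 28.6% and 32.0%. Apart from cox8a, the complement of cox8b, no other isoform share separated the genotypes in both conditions. With 2 libraries on each side such separations arise easily, and they were not tested. For cox4i1l the difference in level was -0.89 ± 0.35 uninjured and -0.43 ± 0.35 at 1 wpi (limma adjusted p = 0.982 and 1).

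The authors' deposited table, which rests on their own fit, lists many more members past an adjusted p of 0.05. Its standard errors can be smaller than those of limma. For injury in wild type, atp5f1e had an SE of 0.08 there and 0.35 in limma, with 499.8 and 214.9 CPM in wild type uninjured 1 and 2. The longer list is therefore not taken as added evidence for single members. For injury in wild type the authors' deposited table has 3 of the 101 members higher (atp5f1b, atp5fa1 and atp5mc1) and 78 lower, where it has 17.6% of all entries in each direction. For uninjured mutants against wild type, the authors' deposited table has 1 member higher (atp5f1b) and 43 lower, beside 9.27% and 12.4% of all entries. At 1 wpi the authors' deposited table has 0 higher and 17 lower, beside 2.97% and 2.79%. In the authors' deposited table ndufv3 differed by -0.81 and -0.46 and cox4i1l by -0.88 and -0.53 between mutants and wild type, uninjured and at 1 wpi.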

How the data were processed

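The authors deposited 4 tables with 8 shared columns of CPM per gene and, per the file headers, one comparison each: a baseMean signal, a log2 fold change, a test score and p-values, raw and adjusted. The submitters' processing notes list Bowtie2, Cufflinks and Cuffdiff. Build, annotation, counter and strandedness were not stated there, so near-identical or overlapping genes may share reads. All CPM values (100%) were whole multiples of 1 read, within 0.01 reads, which gave reads and depth; 1 read was 0.0299 to 0.0498 CPM.

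limma 3.58.1 in R 4.3.3 was fitted with a variance trend on log2(CPM + 1) over 4 group means, with 4 residual degrees of freedom, and was tested on simulated data. The pseudocount understates changes of low genes. Alternatives were TMM scaling, totals without mitochondrial reads, a pseudocount of 0.1, no filter, and edgeR 4.0.16 and DESeq2 1.42.0 on the recovered reads. In others, each library was left out, or wild type uninjured 1 and mutant 1 wpi 1 together. Further fits used only the groups compared, or a replicate block. Non-overlap under other settings and 2 checks of shares without isoforms were added after seeing the data. The members and lists were chosen with earlier results of these data known. Sums and shares have no test. Genes named were called members, the 2 highest per complex, the largest changes, core subunits, isoforms and called pathway genes; others were chosen after their values were seen. Replicates correlated (log2, across genes) at 0.895 and 0.957 before injury, wild type then mutant, and at 0.976 and 0.977 after it.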

Additional observations from a re-analysis of the deposited data

How the results depend on the processing

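Of 163 values of called members under the alternatives run, 121 kept their direction and call, 42 kept only their direction and 0 reversed. The counts of calls moved more. Called genes for injury in wild type, 737 in the main test, were 1707 with DESeq2, 317 without wild type uninjured 1 and mutant 1 wpi 1, and 110 with only the groups compared. For injury in mutants, 610, they were 241 with TMM scaling, 292 without mitochondrial reads in the totals, 382 without the filter, 170 with edgeR, 336 without those 2 libraries and 1234 with only the groups compared. For the average, 2335, they were 1499 without mitochondrial reads, 1503 with edgeR and 1255 without the 2 libraries. For genotype in uninjured cord, 0, they were 83 with DESeq2, 6 without the 2 libraries and 93 with only the groups compared. For genotype at 1 wpi, 51, they were 0 with TMM scaling, 0 without mitochondrial reads, 79 with a pseudocount of 0.1, 17 without the filter, 0 with edgeR, 148 with DESeq2 and 231 with only the groups compared. For the interaction, 108, they were 36 with TMM scaling, 65 without mitochondrial reads, 63 without the filter, 0 with edgeR and 222 with DESeq2. Members called in wild type, 2, were 17 with DESeq2, 0 without the 2 libraries and 0 with only the groups compared. In mutants, 1, they were 2 without mitochondrial reads, 0 without the filter, 4 with DESeq2, 0 without the 2 libraries and 3 with only the groups compared. In the average, 7, they were 13 with TMM scaling, 14 without mitochondrial reads, 15 with edgeR, 38 with DESeq2 and 3 without the 2 libraries. The fit limited to the groups compared has no value of its own for the average and the interaction, which use all groups. The cause of these moves was not tested.

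Leaving out each library in turn gave 57 to 3834 called genes for injury in wild type, 56 to 1751 in mutants, 818 to 5565 in the average, 0 to 825 for genotype in uninjured cord, 0 to 142 at 1 wpi and 0 to 350 for the interaction. Members called were 0 to 25, 0 to 4, 3 to 27, 0 to 4, 0 to 0 and 0 to 0 in the same order. A group left with 1 library was assumed to vary like the others.

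Labels share only the replicate numbers 1 and 2, so they do not establish a pairing; differences of library 1 minus 2 correlated at 0.318, 0.222 and 0.209 between the groups that have both. With a replicate block, called genes were 1277 for injury in wild type, 1378 in mutants, 3442 in the average, 167 for genotype uninjured, 177 at 1 wpi and 231 for the interaction, and members called were 4, 3, 11, 0, 0 and 0; the injured wild-type library numbered 3 had a block level of its own.

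Log2 ratios of summed levels after to before injury moved with the scaling. With TMM scaling they were -0.62, -0.36, -0.28, -0.81 and -0.32 for complexes I to V in wild type and -0.54, -0.26, -0.27, -0.64 and -0.30 in mutants. Without mitochondrial reads in the totals they were -0.48 for complex I in wild type, and in mutants -0.33, -0.07, -0.07, -0.42 and -0.09 for complexes I to V. Members whose injured libraries all lay higher numbered 0 with TMM scaling, 0 without mitochondrial reads and 17 without the 2 libraries, and those all lower 27 with TMM scaling and 39 without mitochondrial reads. Genes under 1 CPM, such as ndufs8b and ndufa4l2b, rest on few reads.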
